A study of Mus musculus with 24 samples.

Results

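The miR-130 and miR-301 family comprises miRNAs that share one seed, the stretch near the 5′ end with which a miRNA pairs to its target messages. Its members were the rows of the deposited table named mmu-miR-130a-3p, mmu-miR-130b-3p, mmu-miR-301a-3p and mmu-miR-301b-3p, 4 of the 1009 mouse miRNAs listed. They were chosen by name, and all 4 were among the 544 miRNAs that passed the filter on low values and were tested. Small RNA came from ground mammary tissue of C57BL/6 females (the abdominal and inguinal pairs of glands together), and each of 24 mice gave 1 library. There were 6 mice in each of 4 groups, taken as adults of 10 weeks (W10), in pregnancy on day 18 (P18), while nursing on day 7 (Lac7) and after nursing, on involution day 3 (Inv3). C57BL/6 is an inbred strain, the labels name no transgene or treatment in any group, and the age of the mice outside W10 was not given in the sources used here. The days are those of the labels and the paper's methods, whereas the design text of the series exchanges them, with lactation at day 3 and involution at day 7.

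A miRNA guides a protein complex to messages that hold a short match to its seed, and the message is then translated less or degraded. Members of one seed family can therefore act on many of the same messages even when they are made from separate genes. Members of this family are known to act on Pparg, the regulator that drives precursor cells to become fat cells. miR-130a is known from endothelial cells, where it acts on homeobox genes that restrain vessel growth. miR-301a is known to act on Nkrf, a repressor of NF-kB. The mammary gland is a fat pad filled by epithelium in pregnancy and emptied of it again in involution, so a homogenate mixes fat, epithelium, vessels and immune cells in shares that change with the stage. In such bulk samples, fewer cells of a type and less RNA per cell cannot be told apart.

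The mature sequences show what the members share and where they part. They are given 5′ to 3′ as listed by RefSeq for GRCm38.p6, with the seed (bases 2 to 8) in capitals.
mmu-miR-130a-3p: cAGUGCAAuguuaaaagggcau
mmu-miR-130b-3p: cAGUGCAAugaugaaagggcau
mmu-miR-301a-3p: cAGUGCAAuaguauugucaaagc
Of the 854 listed miRNAs with a mature sequence in that table, these 3 were the ones with this seed. mmu-miR-130a-3p and mmu-miR-130b-3p were the same at 20 of 22 positions and differed by U11A and A13G, counted from 1 at the 5′ end. mmu-miR-301a-3p shared the first 9 bases with both, and 12 of 22 positions in all with mmu-miR-130a-3p. The mature mmu-miR-301b-3p was not in the table, and its hairpin, the folded precursor from which both arms are cut, is shown in its place, beside that of its neighbour on the chromosome. The capitals again mark the seed.
Mir130b: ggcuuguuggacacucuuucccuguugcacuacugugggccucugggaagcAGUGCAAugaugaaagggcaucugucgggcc
Mir301b: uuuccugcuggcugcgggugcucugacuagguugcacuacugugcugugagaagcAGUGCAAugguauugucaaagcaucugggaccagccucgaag
The stretch of the Mir301b hairpin most like mmu-miR-301a-3p differed from it at 1 of 23 positions, A10G. The 130 pair and the 301 pair are thus close copies, and reads with an error at those positions can be assigned to the wrong member. How many reads this touched was not tested.

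The 4 hairpins come from 3 places in the genome (GRCm38, with the same positions in GENCODE M21). Mir130a lies at chr2:84741115-84741178 on the minus strand, outside any other annotated gene. Mir301, the gene of mmu-miR-301a-3p, lies at chr11:87113004-87113089 on the plus strand, in an intron of Ska2, a gene of the mitotic spindle, and on the same strand. Mir130b lies at chr16:17124061-17124142 and Mir301b at chr16:17124400-17124496, both on the minus strand and both in introns of 2610318N02Rik on the same strand. This last pair forms a cluster, with 257 bases between the hairpins.

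Levels are in RPM, the reads of a miRNA as a share of the reads on all listed miRNAs, scaled to one total in every library. The libraries held 660346 to 1165321 such reads, with the fewest at Lac7 (660346 to 751890), so 1 read was worth 0.858 to 1.514 RPM. The values are shares of a fixed total, and the stages shifted as a whole. The median log2 fold change of the 544 tested miRNAs was -0.32 for P18 against W10, -0.34 for Lac7 against P18, 0.28 for Inv3 against Lac7 and -0.66 for Lac7 against W10. It was -0.41 for Inv3 against W10 and -0.11 for Inv3 against P18. Under a scaling by DESeq2 size factors, which centre each library on its typical miRNA, these medians were -0.12, -0.14, 0.18, -0.31, -0.10 and -0.02, in the same order. Changes of the members are given with both scalings wherever the call or the direction differs. A member is said to have passed where limma gave it an adjusted p under 0.05, by the Benjamini-Hochberg method over all 544 miRNAs.

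mmu-miR-301a-3p and mmu-miR-130a-3p carried nearly all the reads of the family. Over the 24 libraries, mmu-miR-301a-3p had 174 to 914 reads and mmu-miR-130a-3p 45 to 268. The other pair was rare, with 2 to 17 reads for mmu-miR-130b-3p and 1 to 34 for mmu-miR-301b-3p. Among the 1009 listed miRNAs, the mean of mmu-miR-301a-3p took rank 99 at W10 and 72 at P18, and then 97 (Lac7) and 81 (Inv3). mmu-miR-130a-3p ranked between 123 and 146, and the rare pair between 254 and 308.

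**Figure D1:**
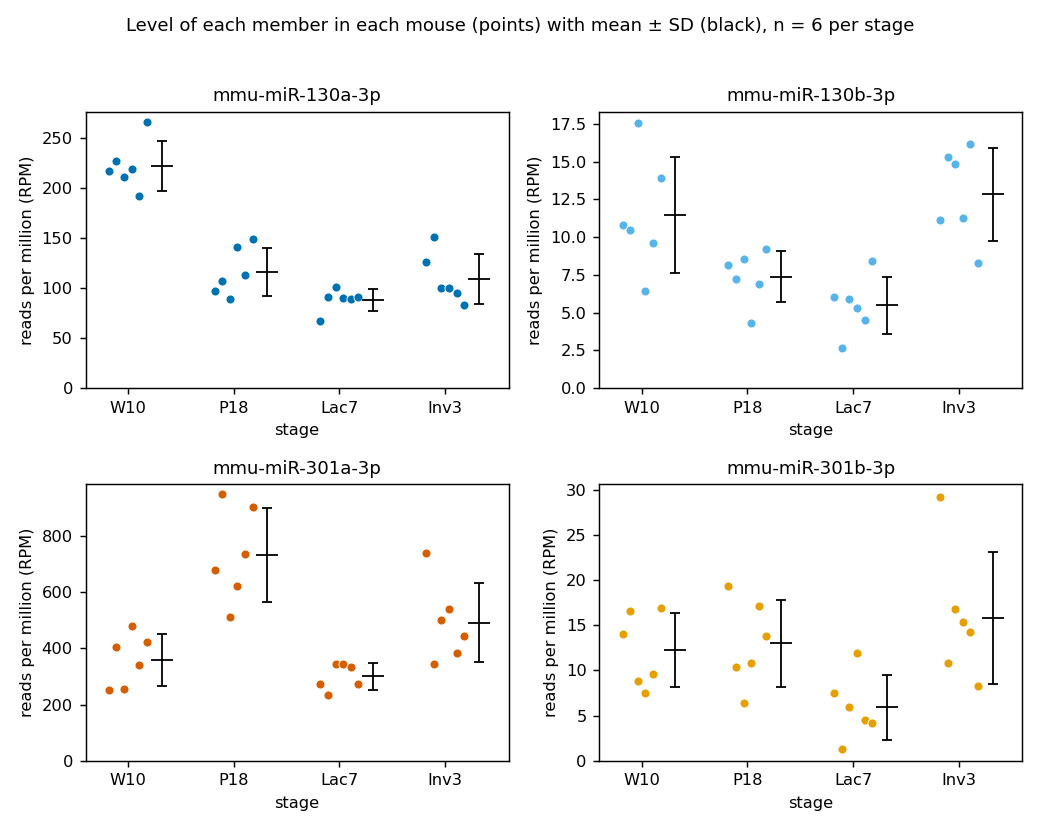
Level of each member in RPM (vertical axis, from 0) in each of 6 mice at W10, P18, Lac7 and Inv3 (points), with the mean ± SD beside them in black. mmu-miR-130a-3p was highest at W10 and mmu-miR-301a-3p at P18, and every member had its lowest mean RPM at Lac7. With size factors the lowest mean of mmu-miR-301a-3p was at W10.

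mmu-miR-130a-3p was highest in the adult gland and lower at each of the other stages. At W10 the lowest mouse had 192 RPM, the median was 218 and the highest 267 (mean 222 ± 24.7, SD, n = 6). At P18 the same values were 89.5, 110.0 and 149 (mean 116 ± 24.1, n = 6), and at Lac7 67.6, 90.7 and 101 (mean 88.4 ± 11.0, n = 6). At Inv3 they were 83.1, 100.1 and 151 (mean 109 ± 24.9, n = 6). All 6 mice at W10 lay above every mouse of the other 3 stages, while P18, Lac7 and Inv3 overlapped. From W10 to P18 it fell 1.91-fold, a log2 change of -0.95 (SE 0.16, limma adjusted p = 2e-05). Lac7 against W10 gave -1.32 (limma adjusted p = 4.2e-08) and Inv3 against W10 gave -1.04 (limma adjusted p = 1.1e-05). With size factors these 3 changes were smaller, at -0.70, -0.77 and -0.66, and passed (limma adjusted p of 0.00049, 7.8e-05 and 0.0014).

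Between the later stages, no change of mmu-miR-130a-3p passed. Lac7 against P18 gave -0.37 (95% interval -0.70 to -0.05, limma adjusted p = 0.057) and Inv3 against Lac7 0.28 (-0.04 to 0.61, adjusted p = 0.15). The first of these passed when P18 mouse 1 (-0.42, limma adjusted p = 0.043), P18 mouse 3 (-0.44, 0.029) or Lac7 mouse 3 (-0.41, 0.048) was left out. It also passed when only miRNAs that reached a mean of 100 RPM at a stage were tested (limma adjusted p = 0.027). With size factors it was -0.07 (limma adjusted p = 0.72), so that the 3 later stages stood at 110 ± 19.1, 104 ± 11.9 and 114 ± 25.2 scaled RPM. Inv3 against P18 was -0.09 in RPM (-0.42 to 0.24, limma adjusted p = 0.72) and changed sign with size factors, to 0.04. In the order of levels, W10 stood apart, and no difference between the neighbours P18, Inv3 and Lac7 passed.

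mmu-miR-301a-3p had its peak in late pregnancy. The lowest, median and highest mouse had 250.2, 372 and 478 RPM at W10 (mean 358 ± 92.3, n = 6) and 509, 708 and 947 RPM at P18 (mean 733 ± 167, n = 6). At Lac7 they had 233, 304 and 344 RPM (mean 300.3 ± 47.1, n = 6), and at Inv3 343, 470.4 and 737 RPM (mean 490.4 ± 141, n = 6). Every P18 mouse lay above every W10 and Lac7 mouse, while 4 of the 6 P18 mice lay within the range of Inv3. The rise from W10 to P18 was 2.04-fold, a log2 change of 1.04 (SE 0.19, limma adjusted p = 6e-05). The fall from P18 to Lac7 was 2.44-fold, a log2 change of -1.27 (SE 0.19, limma adjusted p = 4e-06). At Inv3 it rose again, 1.63-fold over Lac7 (log2 change 0.68, SE 0.19, limma adjusted p = 0.0046), with 2 of the 6 Lac7 mice inside the range of Inv3. These 3 changes passed with size factors too, at 1.29, -0.96 and 0.50.

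Outside the steps from one stage to the next, the call or the direction of each change of mmu-miR-301a-3p turned on the scaling. Inv3 against P18 was -0.59 (limma adjusted p = 0.019), and it was -0.46 with size factors (adjusted p = 0.058). It also missed the threshold without P18 mouse 2 (-0.51, limma adjusted p = 0.056), Inv3 mouse 2 (-0.50, 0.056) or Inv3 mouse 5 (-0.53, 0.051). Inv3 against W10 was 0.45 (95% interval 0.06 to 0.84, limma adjusted p = 0.064), and 0.83 with size factors (adjusted p = 0.0008). In RPM it passed without W10 mouse 4 (0.54, limma adjusted p = 0.03), Inv3 mouse 2 (0.54, 0.026) or Inv3 mouse 5 (0.51, 0.047). Lac7 against W10 was -0.23 in RPM (95% interval -0.62 to 0.16, limma adjusted p = 0.29) and changed sign with size factors, to 0.33 (adjusted p = 0.12). In the order of levels, P18 came first, then Inv3, W10 and Lac7. In RPM over all mice, the differences between Inv3 and W10 and between W10 and Lac7 did not pass.

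mmu-miR-130b-3p was lowest in the lactating gland. Its lowest, median and highest mouse had 6.46, 10.6 and 17.6 RPM at W10 (mean 11.5 ± 3.82, n = 6) and 4.34, 7.70 and 9.20 RPM at P18 (mean 7.39 ± 1.72, n = 6). At Lac7 they had 2.68, 5.625 and 8.43 RPM (mean 5.49 ± 1.89, n = 6), and at Inv3 8.31, 13.0 and 16.2 RPM (mean 12.8 ± 3.07, n = 6). Of the Lac7 mice, 5 lay below every Inv3 mouse, and the groups overlapped in 1 Lac7 mouse of 8.43 RPM and 1 Inv3 mouse of 8.31 RPM. The rise from Lac7 to Inv3 was 2.34-fold, a log2 change of 1.12 (SE 0.27, limma adjusted p = 0.0012), and 0.97 with size factors (adjusted p = 0.0046). At these few reads, counting alone gives an SD of 2.80 RPM at Lac7, more than the 1.89 RPM seen between the mice.

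Earlier in the cycle, mmu-miR-130b-3p was lower at P18 than at W10 by -0.54 (95% interval -1.10 to 0.01, limma adjusted p = 0.1), with 5 of the 6 W10 mice above every P18 mouse. That change passed without W10 mouse 4, the lowest at W10 (-0.68, limma adjusted p = 0.047). Lac7 against P18 was -0.40 (-0.95 to 0.15, limma adjusted p = 0.24). Lac7 against W10 was -0.94 (limma adjusted p = 0.0033), but -0.45 with size factors (adjusted p = 0.15), so this fall rests on the RPM scaling. Inv3 against W10 was 0.18 (-0.38 to 0.73, limma adjusted p = 0.64). Inv3 against P18 was 0.72 (limma adjusted p = 0.046) and 0.84 with size factors (adjusted p = 0.024). In RPM it missed the threshold when any of 9 of the 12 mice was left out, P18 mice 1, 2, 4 and 5 and Inv3 mice 1 to 5, with limma adjusted p of 0.052 to 0.13 and values of 0.60 to 0.75. In the order of levels, Inv3 came first, then W10, P18 and Lac7, and over all mice no difference between these neighbours passed.

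mmu-miR-301b-3p, from the same cluster, was also lowest at Lac7. The lowest, median and highest mouse had 7.53, 11.8 and 16.9 RPM at W10 (mean 12.2 ± 4.13, n = 6) and 6.39, 12.3 and 19.4 RPM at P18 (mean 13.0 ± 4.77, n = 6). At Lac7 they had 1.34, 5.235 and 11.97 RPM (mean 5.92 ± 3.604, n = 6), and at Inv3 8.31, 14.8 and 29.2 RPM (mean 15.8 ± 7.26, n = 6). At Lac7, 3 of the 6 mice had 3 reads or fewer, and 5 lay below every Inv3 mouse, while W10 and P18 covered nearly the same range. It fell 2.19-fold from P18 to Lac7, a log2 change of -1.12 (SE 0.35, limma adjusted p = 0.01). That fall was -0.86 with size factors and just missed the threshold (limma adjusted p = 0.052). The rise from Lac7 to Inv3 was 2.67-fold, a log2 change of 1.36 (SE 0.35, limma adjusted p = 0.0024), and it passed with size factors at 1.22 (adjusted p = 0.0064).

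Lac7 against W10 for mmu-miR-301b-3p was -1.06 in RPM (limma adjusted p = 0.01) and -0.57 with size factors (adjusted p = 0.17). P18 against W10 was 0.06 (95% interval -0.66 to 0.79, limma adjusted p = 0.91), a value whose sign turned when any of 4 mice was left out. These were W10 mouse 3 (-0.01), W10 mouse 4 (-0.05), P18 mouse 1 (-0.06) and P18 mouse 5 (-0.03). Inv3 against W10 was 0.30 (-0.42 to 1.03, limma adjusted p = 0.52), and Inv3 against P18 was 0.24 (-0.48 to 0.96, limma adjusted p = 0.67). Its levels ran in the order Inv3, P18, W10 and Lac7, and among these neighbours the difference between W10 and Lac7 passed, in RPM only. The highest value of this member at any stage, 29.2 RPM (34 reads), was in Inv3 mouse 1, which also had the highest mmu-miR-301a-3p of its stage (737 RPM).

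**Figure D2:**
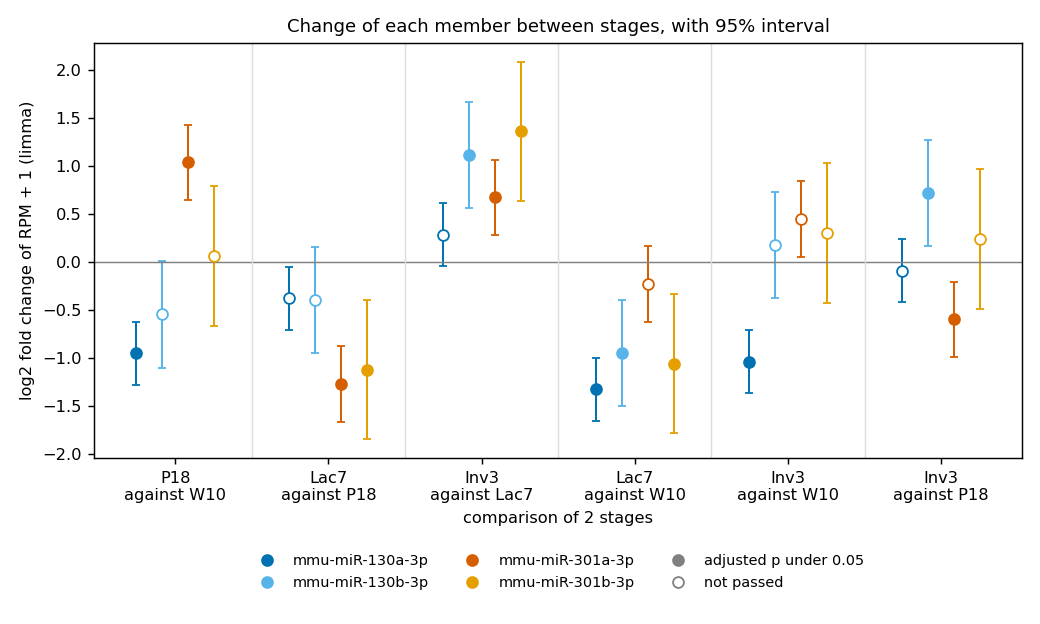
Log2 fold change of RPM + 1 (vertical axis) of each member in the 6 comparisons of stages (horizontal axis), with the 95% interval from limma; filled points passed an adjusted p of 0.05. In P18 against W10, mmu-miR-301a-3p was at 1.04 and mmu-miR-130a-3p at -0.95, on opposite sides of 0.

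Taken by comparison, the members that passed were few, as the family is small. For P18 against W10, 1 of the 4 rose (mmu-miR-301a-3p) and 1 fell (mmu-miR-130a-3p), where 12.1% of the 544 tested miRNAs rose and 29.4% fell. From P18 to Lac7, 0 rose and 2 fell, mmu-miR-301a-3p and mmu-miR-301b-3p, with 13.8% and 31.4% of all tested. From Lac7 to Inv3, 3 rose and 0 fell, with 27.9% rising and 18.9% falling among all tested. The member that did not pass there was mmu-miR-130a-3p. The median of the 4 members was -0.24 against -0.32 for all tested in the first of these steps, -0.76 against -0.34 in the second and 0.90 against 0.28 in the third.

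Across longer intervals, 3 members fell from W10 to Lac7 and 0 rose, where 48.5% of all tested fell and 18.2% rose. With size factors 1 member passed, mmu-miR-130a-3p. For Inv3 against W10, 1 member fell (mmu-miR-130a-3p) and 0 rose in RPM, where 31.2% fell and 7.9% rose. For Inv3 against P18, mmu-miR-130b-3p rose and mmu-miR-301a-3p fell, where 10.8% rose and 17.6% fell. With 4 members, 1 call more or fewer changes such a share greatly, and no test over the family as a group was made.

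**Figure D3:**
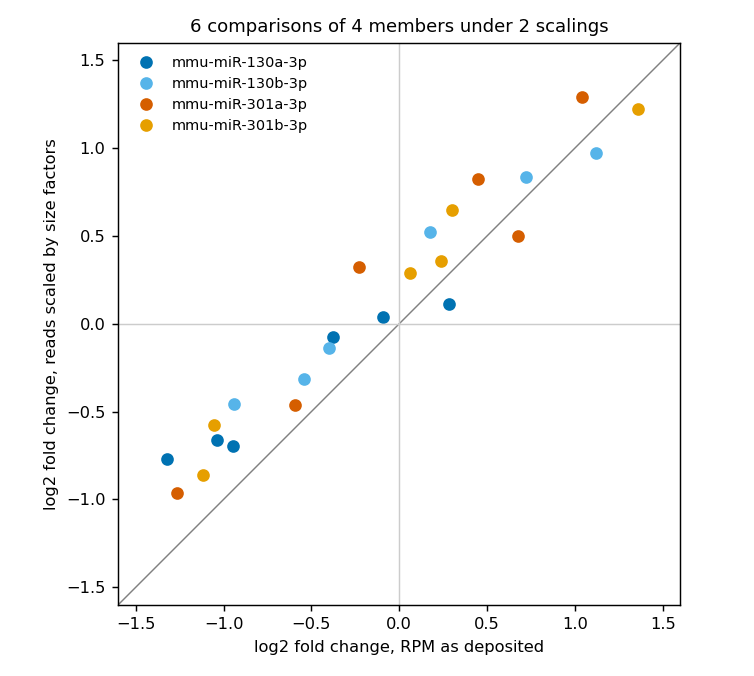
Log2 fold change of each member in each of the 6 comparisons with RPM as deposited (horizontal axis) and with reads scaled by DESeq2 size factors (vertical axis); the line marks equal values. The points follow the line with a shift, and 2 of the 24 changed sign: mmu-miR-301a-3p in Lac7 against W10 (-0.23 and 0.33) and mmu-miR-130a-3p in Inv3 against P18 (-0.09 and 0.04).

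The sum of the members gives the share of the listed miRNA reads that fell to these named rows. Listed miRNAs without a mature sequence were not checked for the seed. The summed level was 604 ± 105 RPM in W10 mice and 869 ± 180 RPM in P18 mice (SD, n = 6 each). It was 400.1 ± 54.7 RPM in Lac7 mice and 628 ± 149 RPM in Inv3 mice (n = 6 each). The 6 mice at Lac7, at 328 to 457 RPM, lay below every mouse of the other 3 stages, the lowest of which had 492 RPM. This gap depended on the scaling, since with size factors the sum was 481 ± 70.1 at W10 and 469 ± 59.0 at Lac7. The sum stayed highest at P18 under that scaling, at 822 ± 140, and was 654 ± 162 at Inv3.

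The makeup of the sum changed with the stage. mmu-miR-301a-3p gave 58.6% ± 6.22 of the family at W10 and 84.0% ± 2.73 at P18 (SD, n = 6 each), with no overlap between the mice of those stages. It gave 74.9% ± 2.56 at Lac7 and 77.4% ± 6.12 at Inv3. mmu-miR-130a-3p gave 37.3% ± 5.10 at W10, and 13.6% ± 2.74, 22.3% ± 3.20 and 18.0% ± 5.65 at P18, Lac7 and Inv3. mmu-miR-130b-3p gave 0.880% to 2.16% and mmu-miR-301b-3p 1.44% to 2.44% on average at the 4 stages. These shares come from within a library and are free of its scaling.

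**Figure D4:**
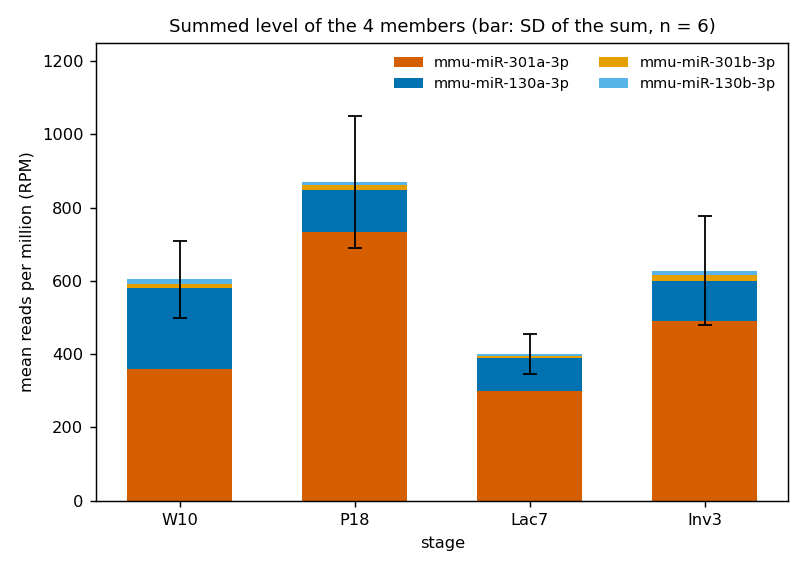
Mean RPM of the 4 members stacked by stage (vertical axis from 0), with the SD of their sum over 6 mice as the black bar. The sum was 869 RPM at P18 and 400.1 RPM at Lac7, and the part given by mmu-miR-130a-3p was largest at W10.

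Ratios between members were compared to ask whether the members changed by different amounts. A ratio depends little on the scaling for the abundant members, while for the rare pair the 1 RPM added to each value before the log ties it to the scaling. For each of the 6 pairs, the log2 ratio was compared between consecutive stages by a two-sided exact permutation test over the 924 splits of 6 mice against 6, which cannot give a p under 0.0022. After Benjamini-Hochberg adjustment over the 18 tests, 7 passed. The ratio of mmu-miR-301a-3p to mmu-miR-130a-3p moved most from W10 to P18. It was 1.15 to 2.18 in the mice at W10 (median 1.68) and 4.41 to 8.87 at P18 (median 6.27), with no overlap. The ratio at Lac7 was 2.56 to 4.02 (median 3.58), above every W10 mouse and below every P18 mouse, and at Inv3 it was 2.27 to 5.84 (median 5.16). The rise from W10 to P18 was 3.97-fold (log2 difference 1.988, exact permutation, adjusted p = 0.013), and the fall from P18 to Lac7 was 1.86-fold (log2 difference -0.89, exact permutation, adjusted p = 0.013). Inv3 against Lac7 was 0.39 (exact permutation, adjusted p = 0.17), and it passed without Inv3 mouse 2, the mouse with the ratio of 2.27 (0.58, adjusted p = 0.0097). The comparisons that did not pass had adjusted p of 0.058 to 0.92.

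**Figure D5:**
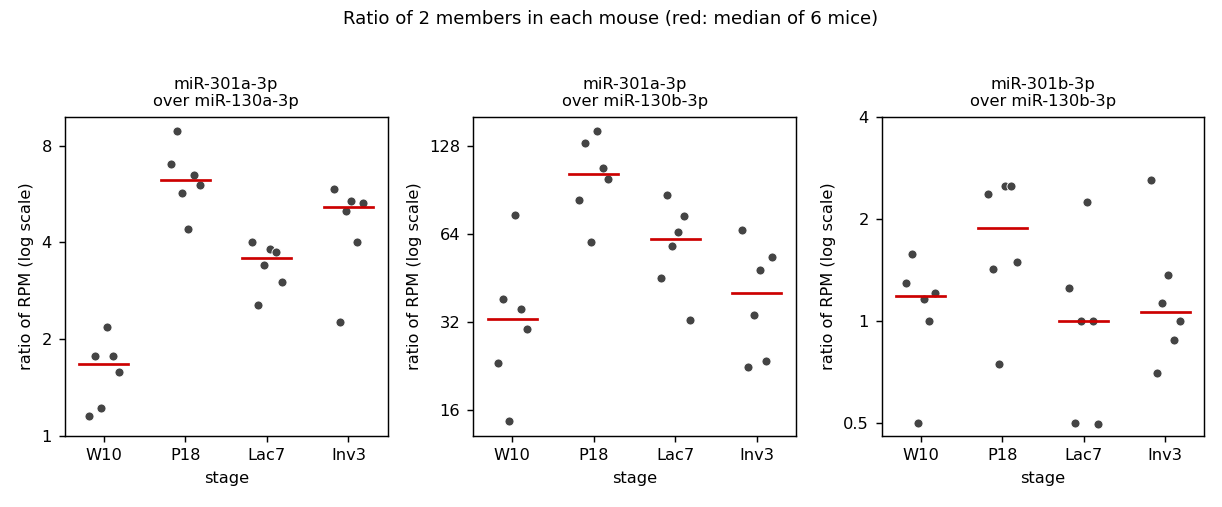
Ratio of the RPM of 2 members in each mouse (points, log scale on the vertical axis) at the 4 stages, with the median of 6 mice in red. The ratio of mmu-miR-301a-3p to mmu-miR-130a-3p had medians of 1.68, 6.27, 3.58 and 5.16, while that of the clustered pair (right) overlapped at all stages.

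Other pairs changed as well. mmu-miR-301b-3p over mmu-miR-130a-3p rose 2.01-fold from W10 to P18 (log2 difference 1.01, exact permutation, adjusted p = 0.013). From Lac7 to Inv3 the same ratio gave 1.08 (exact permutation, adjusted p = 0.058), and it passed without Lac7 mouse 1 (1.25), Lac7 mouse 4 (1.28) or Inv3 mouse 2 (1.26). mmu-miR-301a-3p over mmu-miR-130b-3p had medians of 32.9 at W10 and 103 at P18, a rise of 3.00-fold (log2 difference 1.58, exact permutation, adjusted p = 0.019). The same ratio fell 1.83-fold from P18 to Lac7 (log2 difference -0.87, exact permutation, adjusted p = 0.026), and missed the threshold without P18 mouse 2 or P18 mouse 4 (-0.79 each, adjusted p = 0.052). The near copies did not keep a fixed ratio either. mmu-miR-130b-3p over mmu-miR-130a-3p rose 1.78-fold from Lac7 to Inv3 (log2 difference 0.83, exact permutation, adjusted p = 0.026), with adjusted p of 0.05 and no call without Inv3 mouse 3 (0.77), 4 (0.84) or 5 (0.73). With a pseudocount of 10 RPM this rise was 0.30 and did not pass (exact permutation, adjusted p = 0.14).

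mmu-miR-301b-3p over mmu-miR-301a-3p fell 1.97-fold from W10 to P18 (log2 difference -0.98, exact permutation, adjusted p = 0.039). That call was lost when any of 10 of the 12 mice was left out, all but W10 mouse 4 and P18 mouse 1, with adjusted p of 0.05 to 0.073 and values of -1.06 to -0.83. The clustered pair, mmu-miR-301b-3p over mmu-miR-130b-3p, had medians of 1.19, 1.94, 1 and 1.07 at the 4 stages. None of its 3 comparisons passed, with log2 differences of 0.61, -0.72 and 0.24 (exact permutation, adjusted p of 0.15, 0.15 and 0.59). The first of them passed without P18 mouse 3 (0.82, adjusted p = 0.028).

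Among the mice of a stage, no pair of members was shown to vary together. After subtracting the stage means, the strongest of the 6 relations was that of mmu-miR-301a-3p and mmu-miR-301b-3p (Pearson r = 0.48, permutation p = 0.017, adjusted p = 0.10; Spearman rho = 0.43, adjusted p = 0.28, n = 24). Without the 2 mice farthest from the median of mmu-miR-301a-3p, r was 0.31. Within a stage, over 6 mice each, r was 0.04 (W10), 0.43 (P18), 0.72 (Lac7) and 0.80 (Inv3). It passed the adjustment without W10 mouse 1 (r = 0.55, permutation, adjusted p = 0.047) or W10 mouse 4 (r = 0.60, adjusted p = 0.016). The clustered pair gave r = 0.33 (permutation, adjusted p = 0.48; rho = 0.19, adjusted p = 0.62), and 0.01 without the 2 farthest mice.

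Other miRNAs with a like course over the 24 libraries were found for each member among 282 miRNAs of at least 10 RPM on average, as a description. The points share their libraries and stages, so likeness includes whatever moved with the stage. mmu-miR-130a-3p was most like mmu-miR-365-3p (Pearson r = 0.94), mmu-miR-708-3p (0.93) and mmu-miR-139-5p (0.90). mmu-miR-365-3p went from 602 RPM at W10 to 161 at P18, 91.2 at Lac7 and 147.6 at Inv3. mmu-miR-301a-3p was most like mmu-miR-20a-5p (0.84), mmu-miR-19b-3p (0.79) and mmu-miR-145a-3p (0.75). Of these, mmu-miR-20a-5p, a product of the miR-17-92 cluster, had 329, 727, 320.3 and 326 RPM at the 4 stages. mmu-miR-130b-3p was most like mmu-miR-139-3p (0.77), mmu-miR-224-5p (0.75) and mmu-miR-146a-5p (0.74), and mmu-miR-301b-3p was most like mmu-miR-342-5p (0.72), mmu-miR-146a-5p (0.68) and mmu-miR-19b-3p (0.67).

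The other arms of the hairpins were barely seen. mmu-miR-130a-5p, mmu-miR-130b-5p and mmu-miR-301a-5p had 0 to 4 reads in each library. For the abundant members this left the 3p arm with nearly all the reads. For Mir130b, the 6 W10 libraries together held 69 reads of mmu-miR-130b-3p and 14 of mmu-miR-130b-5p, and the 6 P18 libraries 43 and 7. mmu-miR-130b-5p had 2 reads in all at Lac7 and 5 at Inv3. A count of 0 in 1 library allows 2.57 to 4.54 RPM (3 reads), by counting error only. The mean of mmu-miR-130b-5p lay below that range at every stage, though the bound is not one for a mean of 6 libraries. It passed in Lac7 against W10 (log2 change -1.21, limma adjusted p = 0.015) and in no other comparison. That call rests on 14 reads at W10 and 2 at Lac7, so no change between stages is read from it.

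The miR-148 and miR-152 family holds the seed letters of the members shifted by 1 base, since its bases 2 to 8 equal bases 1 to 7 of the members. The sequences are shown to let the shift be seen, with bases 2 to 8 in capitals.
mmu-miR-148a-3p: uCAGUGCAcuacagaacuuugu
mmu-miR-148b-3p: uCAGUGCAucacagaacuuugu
mmu-miR-152-3p: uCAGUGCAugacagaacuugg
These 3 were highest at Lac7, where every member of the miR-130 and miR-301 family had its lowest mean RPM. With size factors the lowest mean of mmu-miR-301a-3p was at W10, at 285 scaled RPM against 352 at Lac7. That difference did not pass, and the other members stayed lowest at Lac7. All 3 of the miR-148 and miR-152 family rose from W10 to Lac7, with changes of 4.33, 0.81 and 0.59 (log2, limma adjusted p of 1.2e-12, 0.0006 and 0.00058). All 3 fell from Lac7 to Inv3, with changes of -2.66, -0.70 and -0.40 (limma adjusted p of 4.1e-08, 0.0038 and 0.02). Among all 544 tested, 18.2% rose from W10 to Lac7 and 18.9% fell from Lac7 to Inv3. The levels of the 3 at Lac7 were 46228, 133 and 749 RPM, against 300.3 RPM for mmu-miR-301a-3p.

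The miR-27 pair, which like miR-130 is known to act on Pparg, did not follow one course. mmu-miR-27b-3p rose from W10 to P18 (0.98, limma adjusted p = 7.8e-08) and on to Lac7 (0.47, adjusted p = 0.0011), and fell to Inv3 (-0.57, adjusted p = 0.00013). mmu-miR-27a-3p rose from Lac7 to Inv3 (0.64, limma adjusted p = 0.0037), as 3 of the members did.

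Lists of miRNAs that mark cell types moved with the stages too, and every list had all of its markers detected. The summed level of 10 epithelial markers had medians, in the order W10, P18, Lac7 and Inv3, of 23344, 69006, 132597 and 51215 RPM, lowest at W10, where mmu-miR-130a-3p was highest. The 5 leukocyte markers had medians of 45050, 19403, 4810 and 17217 RPM, and 5 of 5 fell from W10 to P18, 5 of 5 from P18 to Lac7, and 5 of 5 rose from Lac7 to Inv3 (limma). Their ranges were 25590 to 48957 RPM at W10 and 3994 to 12161 RPM at Lac7. The 3 skeletal muscle markers had medians of 10866, 436, 2232 and 265 RPM, and the 3 red blood cell markers 1145, 491, 956 and 822 RPM. The summed level of the 2 endothelial markers stayed between 12532 and 19549 RPM in all mice. Of these 2, 0 rose and 1 fell from W10 to P18, and 2 rose and 0 fell from P18 to Lac7 (limma). From Lac7 to Inv3, 0 of them rose and 1 fell. The 6 markers of fibroblasts and smooth muscle had medians of 178152, 199778, 160945 and 293669 RPM. The sum of that list went against most of its markers, since 1 rose and 4 fell from W10 to P18, and 2 rose and 4 fell for Inv3 against W10 (limma). From P18 to Lac7, 0 rose and 4 fell, and from Lac7 to Inv3, 6 of 6 rose. Of the 10 epithelial markers, 8 rose and 0 fell from W10 to P18, 6 rose and 2 fell from P18 to Lac7, and 1 rose and 9 fell from Lac7 to Inv3. The counts are from RPM. Of all 544 tested, 12.1% rose and 29.4% fell in P18 against W10, and 13.8% and 31.4% in Lac7 against P18. The shares were 27.9% and 18.9% in Inv3 against Lac7, and 7.9% and 31.2% in Inv3 against W10. With size factors, median log2 changes of leukocyte markers between consecutive stages were -1.04, -1.07 and 1.53. They were -0.11, 0.66 and -0.24 (endothelium), -0.47, -0.65 and 1.05 (fibroblasts and smooth muscle) and 1.88, 1.42 and -1.66 (epithelium). The highest median RPM was at W10 for leukocytes, skeletal muscle and red blood cells. It was at Lac7 for epithelium and endothelium, and at Inv3 for fibroblasts and smooth muscle. No list covered fat cells. The part of the cell makeup in the changes of the members was not tested.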

How the data were processed

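Small RNA libraries of 24 mice, 6 per stage, were made with a QIAseq kit and read on an Illumina NextSeq, per the study's methods. Its figure legends name an Illumina NovaSeq for the mammary glands instead. Mice are numbered 1 to 6, with 7 in place of 6 at W10. The authors assigned reads with QuickMIRSeq and miRBase 22 and deposited RPM, scaled to the reads on the 1009 listed miRNAs. The submitters' processing notes also name cutadapt, Trimmomatic 0.36 and GRCm38. Whether molecular identifiers were counted is not given in the sources used here. Values were whole multiples of 1 step within 0.005 RPM, so whole reads were recovered for 100% of values. Miscalled bases and reads shared by near copies (the 130 pair, the 301 pair) can move reads between members.

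The 544 miRNAs whose mean reached 1 RPM at any stage were fitted with limma 3.58.1 in R 4.3.3 on log2(RPM + 1), with a trend, in 1 fit over 24 libraries, two-sided. Fold changes are on that scale and understate the change of low miRNAs. Folds of a single miRNA are ratios of mean RPM, and folds of a ratio of members are 2 to the power of the difference in mean log2 ratio. Ratios of RPM + 1 were tested by exact permutation and relations between mice by 100000 permutations within stages (python 3.11.15, scipy 1.17.1, numpy 2.4.6, pandas 2.3.3, matplotlib 3.10.9). Alternatives were pseudocounts of 0.1 and 10 RPM, no filter, a filter at 100 RPM, the 12 libraries of a comparison alone, a block for mouse number, edgeR 4.0.16 and DESeq2 1.42.0 on recovered reads, size factors, a fold limit and each mouse left out. Reads were also simulated for 544 miRNAs around their mean levels over all 24 libraries, with a fixed spread. Rises and falls in equal number were put into the P18 libraries, and none into the most abundant miRNAs. In P18 against W10, limma called 73 of 100 miRNAs changed by a log2 fold of 2 and 44 of 100 changed by 1. It called 4 of 344 unchanged ones. In the real data more miRNAs fell than rose, so these rates need not hold there. The members and lists were chosen with earlier results of these data known. The miRNAs named were the 4 members, the other arms of their hairpins, miRNAs sharing their seed or its letters shifted by 1 base, the miR-27 pair, and the 3 most like each member.

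Mouse numbers do not pair the libraries: 33 same-number pairs had a mean correlation of -0.045 of their deviations from stage means, against 0.004 for 183 other pairs. The smallest difference between libraries of a stage was 9.63 chi-square per degree of freedom over 60 pairs, so each library was counted as its own sample. Sequences are from RefSeq for GRCm38.p6, with 3 of the 4 members matched. The study's cell culture data were not analysed here.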

Additional observations from a re-analysis of the deposited data

Results flagged for a closer look

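The level of mmu-miR-130a-3p in Lac7 mouse 1 was 67.56 RPM, apart from the other 5 mice of its stage, which had 89.35 to 100.84 RPM. The gap to the next mouse was 0.655 of the range of the group, over Dixon's critical value for 6 samples. This was 1 of the 16 groups of a member at a stage that were tested, and chance flags about 1 in 20 groups. Its 45 reads were the fewest of mmu-miR-130a-3p in any library. Counting alone gives an SD of 11.2 RPM for this member at Lac7, against 11.0 RPM seen between the mice.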

How the results depend on the processing

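The number of members that passed depended on the setting in each comparison. With a fold limit (absolute log2 change of at least 1) it went from 2 to 1 in P18 against W10, from 2 to 0 in Inv3 against P18, and from 3 to 2 in Inv3 against Lac7 and in Lac7 against W10. With a filter at 100 RPM, which leaves mmu-miR-130a-3p and mmu-miR-301a-3p, it went from 3 to 1 in Inv3 against Lac7 and in Lac7 against W10, from 1 to 2 in Inv3 against W10 and from 2 to 1 in Inv3 against P18. In Lac7 against P18 that filter kept the number at 2, with mmu-miR-130a-3p passing and mmu-miR-301b-3p not tested. edgeR, DESeq2 and size factors each gave 1 for Lac7 against W10, 2 for Inv3 against W10 and 1 for Inv3 against P18, and DESeq2 and size factors gave 1 for Lac7 against P18. For Inv3 against P18 a pseudocount of 0.1, no filter and the replicate block, each, gave 1, and the block changed no other call of a member. Leaving out 1 mouse gave 1 to 2 members for Inv3 against W10 and 0 to 2 for Inv3 against P18. It gave 2 to 3 for P18 against W10 (3 without W10 mouse 4) and for Lac7 against P18 (3 without P18 mouse 1 or 3 or Lac7 mouse 3). Among all tested, the count that passed fell with the 100 RPM filter from 226 to 127, 246 to 132, 255 to 151, 363 to 164, 213 to 123 and 155 to 101, in the order of the 6 comparisons. With the fold limit it was 150 for P18 against W10, 146 for Inv3 against Lac7, 136 for Inv3 against W10 and 77 for Inv3 against P18.

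Of the log2 fold changes of members under other settings, 179 kept their direction and their side of the threshold, 14 lost the call, 5 gained it and 6 turned. With 1 mouse left out these numbers were 265, 12, 7 and 4. Every value that turned had not passed. mmu-miR-301a-3p in Lac7 against W10 was 0.22 (edgeR), 0.30 (DESeq2) and 0.33 (size factors), and mmu-miR-130a-3p in Inv3 against P18 was 0.027, 0.059 and 0.037. mmu-miR-301b-3p in P18 against W10 ran from -0.061 to 0.23 with 1 mouse left out. Of the ratios, mmu-miR-130b-3p to mmu-miR-130a-3p in Lac7 against P18 was 0.17 with a pseudocount of 10 and -0.21 to 0.14 with 1 mouse left out. The ratio of mmu-miR-301a-3p to mmu-miR-130b-3p in Inv3 against Lac7 was 0.10 with a pseudocount of 10. That of mmu-miR-301b-3p to mmu-miR-301a-3p in Lac7 against P18 was -0.024 with a pseudocount of 0.1 and -0.027 to 0.35 with 1 mouse left out. The r of mmu-miR-130a-3p and mmu-miR-130b-3p, 0.04, ran from -0.087 to 0.182 with 1 mouse left out. The summed level was 481 and 469 RPM at W10 and Lac7 with size factors, against 604 and 400.1. The cause of these shifts was not tested. At 1 to 34 reads per library, counting limits what can be said of the rare pair.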
